A study of Mus musculus with 6 samples.

Results

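The mitochondrial ribosome is the separate translation machine inside mitochondria. It makes the few proteins that mitochondrial DNA encodes, all of them subunits of the respiratory chain and ATP synthase, while its own proteins are encoded in the nucleus, made in the cytosol and imported. Some of these proteins have a counterpart in the bacterial ribosome and others are found only in mitochondria. Resting haematopoietic stem cells keep mitochondrial activity low, and it rises when they divide and differentiate.

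The genes described here are those with a symbol of the form Mrpl or Mrps followed by a number, pseudogene symbols left out, at 1 FPKM or more in at least 3 libraries. FPKM (fragments per kilobase of transcript, scaled to the total of the library) is a level per transcript length. All 77 genes matched by symbol met the level rule, among 10676 of 21851 genes that did. None was near the limit, since the lowest averaged 5.66 FPKM over the 6 libraries. By the assignment of their proteins in mammalian structures, 50 encode proteins of the large subunit and 26 of the small subunit. The remaining gene, Mrps36, is named as a ribosomal protein but its product is now placed in the oxoglutarate dehydrogenase complex. Symbol and subunit do not always match: Mrps30 and Mrps18a encode proteins of the large subunit.

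RNA was sequenced from bone marrow cells of wild-type (WT) mice that had been given a high cholesterol diet (HCD, 3 libraries) or a control diet (CD, 3 libraries) for 3 months. The sort was for LT-HSCs, the stem cells that sustain blood formation over the long term (no lineage markers, c-Kit+, Sca1+, CD34-, CD135-). The labels do not state strain, sex, age or how many mice stand behind each library, so the p-values measure the spread between libraries, which may be technical. In bulk RNA of this kind, fewer cells of a type and less RNA per cell cannot be told apart.

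Depth, read from the size of a single read in low values, was about 19100000 to 20000000 reads or fragments in HCD libraries and 18800000 to 19200000 in CD libraries. The 77 genes took an estimated 87 (Mrpl17) to 3884 (Mrps26) reads per library, with a median of 648. Markers of the sorted cells were present (Kit averaged 120 and Ly6a 64.2 FPKM), but so were transcripts of the proteins that the gate leaves out (Cd34 averaged 464 and Flt3 109 FPKM), while Slamf1 averaged 2.60 FPKM. The libraries are therefore called here by their label only. HCD replicate 2 stood apart from HCD replicates 1 and 3: its median absolute log2 difference from them over the 77 genes was 0.129 and 0.146, against 0.063 between the other two and 0.079 to 0.096 among CD libraries. Between HCD and CD libraries it was 0.117 to 0.151. The separation was not particular to the 77 genes: over all genes tested the values were 0.134 and 0.146, against 0.070, and 0.068 to 0.077 among CD libraries. Results are given with and without it below.

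Across all 77 genes, the HCD libraries were close to the CD libraries, and most of the differences were small and below 0. By limma on log2(FPKM + 1), with Benjamini-Hochberg adjustment over all genes tested and a threshold of 0.05, Mrpl33 was higher in HCD and Mrpl42, Mrpl40 and Mrps33 were lower. The other 73 did not pass. These 4 genes are 5.19% of the 77, where 13.9% of all genes tested passed (6.28% higher and 7.66% lower). The log2 difference was below 0 for 50 of the 77 genes (64.9%), against 57.9% of all genes tested. Its median was -0.05 for the 77 genes and -0.03 for all genes. With TMM factors, a rescaling to a trimmed mean, 40 of the 77 genes were below 0. The medians were then -0.018 for the 77 genes and -0.005 for all genes. Groups did not overlap for 21 of the 77 genes, with HCD below CD for 16 and above it for 5. Among all genes tested 37.7% did not overlap (22.7% with HCD below CD and 15% above). The standard error of the log2 difference was 0.045 (Mrps18a) to 0.134 (Mrpl27), and the 95% intervals of 76 of the 77 genes lay within 0.5 of 0. With the replicate numbers as a block, 8 of the 77 genes passed, 2 higher and 6 lower, where 17.5% of all genes did (7.88% higher and 9.67% lower). The first 4 were among the 8. The 4 others were Mrpl52, Mrpl36, Mrpl12 and Mrps12.

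**Figure D1:**
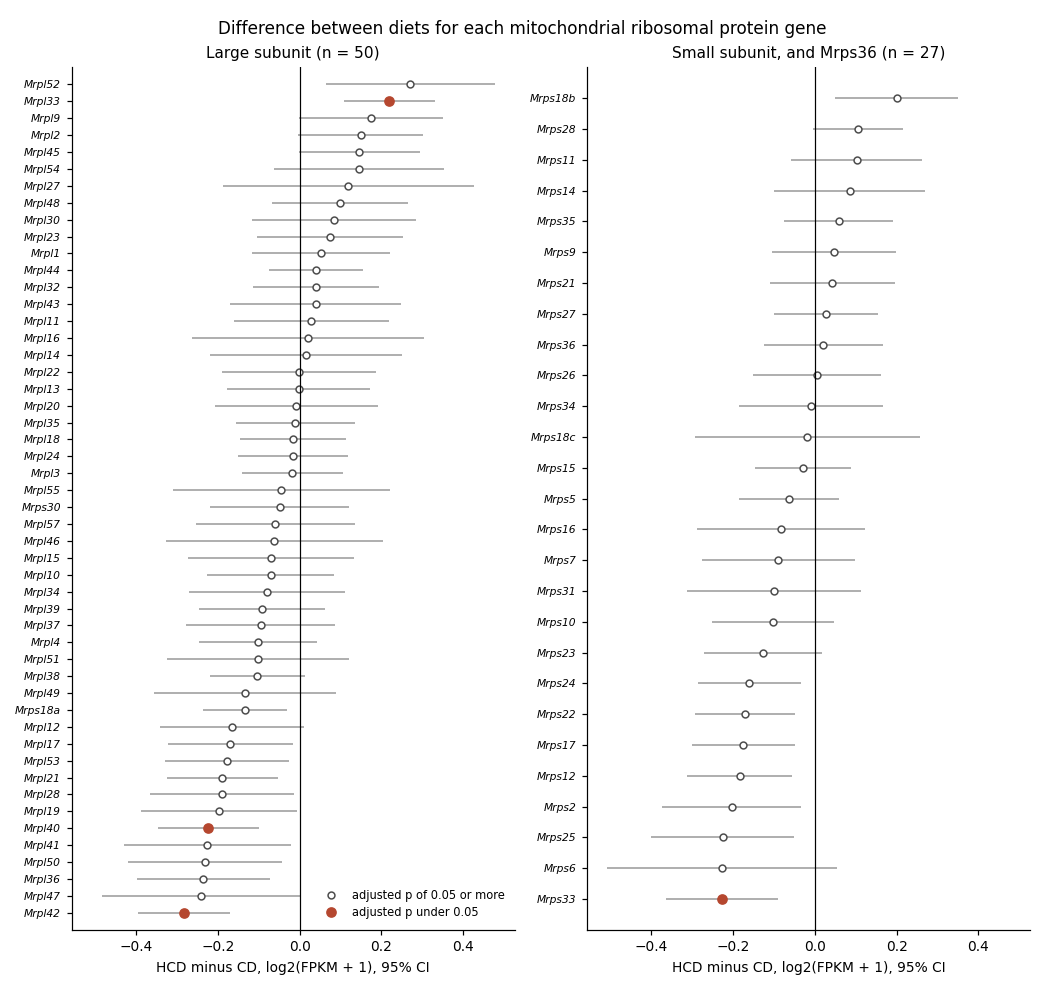
Log2 difference in log2(FPKM + 1), HCD minus CD, for each of the 50 large subunit genes (left) and the 26 small subunit genes with Mrps36 (right), as a point with its 95% interval from limma (3 libraries per group). Filled points mark the 4 genes with an adjusted p under 0.05, and the intervals of 56 of the 77 genes cross 0.

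Mrpl42, a large subunit gene with no bacterial counterpart, had 68, 72.5 and 65.5 FPKM in the HCD libraries and 85.6, 82.2 and 83.3 FPKM in the CD libraries. Each HCD library was below each CD library. Its mean was 68.7 ± 3.58 FPKM in HCD and 83.7 ± 1.73 FPKM in CD (SD, n = 3 each), a log2 difference of -0.28 (SE 0.05; limma adjusted p = 0.00938). It passed in 5 of the 6 fits that leave out 1 library, with an adjusted p of 0.000432 without HCD replicate 2 and 0.0541 without CD replicate 1.

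Mrpl33, whose protein has a small bacterial counterpart in the large subunit, had the highest level of all 77 genes. It had 126, 125 and 116 FPKM in the HCD libraries and 103, 103 and 108 FPKM in the CD libraries, so that the lowest HCD library was above the highest CD library. The means were 122 ± 5.72 FPKM in HCD and 105 ± 2.73 FPKM in CD, a log2 difference of 0.22 (SE 0.05; limma adjusted p = 0.0219). The call was lost without CD replicate 1 (adjusted p = 0.098), CD replicate 2 (0.0928), CD replicate 3 (0.0622) or HCD replicate 1 (0.0858).

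Mrpl40 encodes a large subunit protein specific to mitochondria, and lies beside Hira, which encodes a histone chaperone. It had 30.8, 32.1 and 29.6 FPKM in HCD libraries and 34.7, 38 and 35.9 FPKM in CD libraries, again without overlap. Its log2 difference was -0.22 (SE 0.05; limma adjusted p = 0.03). Mrps33, a small subunit gene specific to mitochondria, had 21.0, 20.8 and 19.1 FPKM in HCD libraries and 23.1, 25.1 and 23.5 FPKM in CD libraries. Its log2 difference was -0.23 (SE 0.06; limma adjusted p = 0.0391). Both calls were lost in 5 of the 6 fits that leave out 1 library, with an adjusted p of up to 0.12 for Mrpl40 and 0.144 for Mrps33, each without CD replicate 2. They held only without HCD replicate 2 (0.00682 for Mrpl40 and 0.0161 for Mrps33). With TMM factors they were lost as well (0.0698 and 0.0768), while those of Mrpl42 and Mrpl33 held (0.0234 and 0.0211).

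In GENCODE M21 on GRCm38, Mrpl42 spans chr10:95480805-95501940 and Mrps33 chr6:39801804-39810988, both on the minus strand and without an overlapping gene. Mrpl40 spans chr16:18872018-18876862 on the minus strand and overlaps Gm28539 on the opposite strand. Mrpl33 spans chr5:31596935-31664384 on the plus strand and overlaps Rbks on the opposite strand and Gm43809 on its own; the RefSeq start used for its promoter lies inside this span. The library kit keeps the strand, but no source used here says whether the counting used it, so reads of overlapping genes may be shared.

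The promoter windows of these 4 genes are shown because they are the members that passed the test. Each window runs from 250 bases before to 50 bases after the transcript start (RefSeq, GRCm38.p6), 5′ to 3′ on the gene's strand. Capitals mark matches, on either strand, to motifs of factors known to act on nuclear genes of mitochondria: NRF1 (nuclear respiratory factor; GCGC, then any base, then TGCGC), ETS (the family of GABP, CCGGAAG) and YY1 (AANATGGC). The windows are chr10:95501900-95502199 on the minus strand for Mrpl42, chr5:31613701-31614000 on the plus strand for Mrpl33, chr16:18876588-18876887 on the minus strand for Mrpl40 and chr6:39810887-39811186 on the minus strand for Mrps33.
Mrpl42: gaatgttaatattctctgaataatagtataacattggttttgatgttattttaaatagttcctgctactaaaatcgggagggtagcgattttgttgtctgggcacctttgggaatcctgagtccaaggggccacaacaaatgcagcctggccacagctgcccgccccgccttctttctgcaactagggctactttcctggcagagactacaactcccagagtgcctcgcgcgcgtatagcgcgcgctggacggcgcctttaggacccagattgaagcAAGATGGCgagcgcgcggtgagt
Mrpl33: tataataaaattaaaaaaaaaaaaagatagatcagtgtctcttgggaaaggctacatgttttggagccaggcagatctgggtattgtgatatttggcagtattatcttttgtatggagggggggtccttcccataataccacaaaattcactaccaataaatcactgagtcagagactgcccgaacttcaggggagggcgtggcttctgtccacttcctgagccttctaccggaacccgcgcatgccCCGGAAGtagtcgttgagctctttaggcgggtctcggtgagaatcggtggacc
Mrpl40: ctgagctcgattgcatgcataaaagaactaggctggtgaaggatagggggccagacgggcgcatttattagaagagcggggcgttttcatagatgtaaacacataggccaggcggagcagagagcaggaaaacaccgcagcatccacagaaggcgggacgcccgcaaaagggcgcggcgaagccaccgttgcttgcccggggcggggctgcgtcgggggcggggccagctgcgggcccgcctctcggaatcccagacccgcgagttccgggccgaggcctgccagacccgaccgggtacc
Mrps33: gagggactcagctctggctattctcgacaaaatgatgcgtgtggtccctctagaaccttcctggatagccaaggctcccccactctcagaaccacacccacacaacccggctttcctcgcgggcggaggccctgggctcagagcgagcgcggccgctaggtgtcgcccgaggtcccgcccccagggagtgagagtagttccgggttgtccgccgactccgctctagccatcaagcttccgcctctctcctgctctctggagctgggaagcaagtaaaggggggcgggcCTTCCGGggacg
The Mrpl42 window held a YY1 match and those of Mrpl33 and Mrps33 an ETS match each, while none of the 3 motifs was found in the Mrpl40 window. The higher gene, Mrpl33, and the lower gene, Mrps33, thus both held an ETS match.

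Such matches were common among the 77 genes. A window was listed for 68 of them, and 46 (67.6%) held at least 1 of the 3 motifs, against 38.7% of 8330 genes tested that had a window and 19.4% of all 27025 genes with one. The ETS motif was found in 25 of the 68 genes (36.8%, against 22% of genes tested and 9.93% of all genes). The YY1 motif was found in 20 (29.4%, against 10.8% and 6.96%) and the NRF1 motif in 13 (19.1%, against 12.7% and 5.19%). A TATAAA sequence, on either strand, was found in 5 (7.35%, against 7.74% and 15.7%). The windows of the 68 genes had a median GC share of 58%, against 61% for genes tested and 52.8% for all genes. Most matches lay within 100 bases of the start: 26 of 29 for ETS, 16 of 19 for NRF1 and 17 of 23 for YY1, where matches on both strands at a place count separately. Another shared trait was a close neighbour: 25 of the 77 genes (32.5%) had a protein-coding gene on the opposite strand starting within 500 bases, as had 15.1% of genes tested. Mrps11 and Mrpl46, both among the 77, are such a pair. A match describes these letters and is no evidence of binding.

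**Figure D2:**
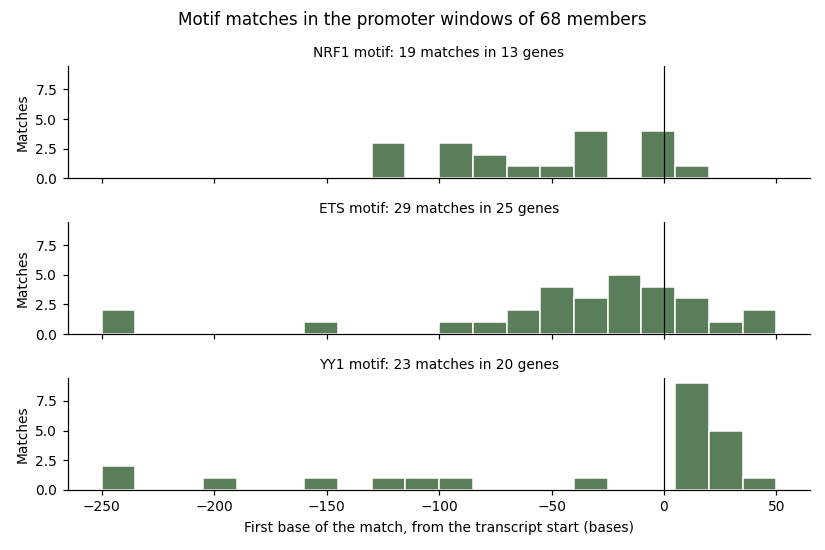
Number of motif matches (vertical axis) by the distance of their first base from the transcript start in bases (horizontal axis), in the promoter windows of 68 of the 77 genes, for the NRF1, ETS and YY1 motifs. Matches gather near the start at 0, with a median of -49 for NRF1, -19 for ETS and 13 for YY1.

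Levels differed far more between genes than between diets. The mean over 6 libraries ran from 5.66 to 114 FPKM, with a median of 29.2 FPKM, and the median gene stood above 75.5% of all genes tested. The 5 highest genes were Mrpl33, Mrpl52, Mrpl12, Mrpl42 and Mrpl13, all of the large subunit. Mrpl12, whose protein forms the stalk that recruits translation factors and has also been found to bind mitochondrial RNA polymerase, had 77.7, 92.0 and 77.7 FPKM in HCD libraries and 90.8, 99.4 and 87.2 FPKM in CD libraries. HCD replicates 1 and 3 were below every CD library and HCD replicate 2 was not (limma adjusted p = 0.182, and 0.00818 without HCD replicate 2). Mrpl13 had 69.4, 83.9 and 71.3 FPKM in HCD libraries and 69.9, 77.2 and 77.3 FPKM in CD libraries, and the groups overlapped.

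The 5 lowest genes were Mrpl1, Mrpl17, Mrps25, Mrps10 and Mrpl35. Mrpl1, which encodes a protein of the mobile stalk at the exit site for tRNA, had 5.71, 6 and 5.61 FPKM in HCD libraries and 5.53, 5.24 and 5.84 FPKM in CD libraries, with overlap. Mrpl17, whose protein lies near the exit of the tunnel for the new chain, averaged 5.67 ± 0.10 FPKM in HCD and 6.51 ± 0.01 FPKM in CD (limma adjusted p = 0.126). Its 3 HCD libraries were below its 3 CD libraries. Mrpl35 lay between 7.19 and 7.42 FPKM in all 6 libraries, and its log2 difference of -0.01 had a 95% interval from -0.16 to 0.14.

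Among the large subunit genes, 1 of 50 rose and 2 fell (6%, against 13.9% of all genes), with a median log2 difference of -0.05. Mrpl52, which encodes a mitochondria-specific protein, had 108, 120 and 92.0 FPKM in HCD libraries and 90.1, 91.2 and 82.8 FPKM in CD libraries. The log2 difference was 0.27 (SE 0.09), and the call depended on the fit (limma adjusted p = 0.081, and 0.0132 with the replicate block). Mrpl36, whose bacterial counterpart is a very small zinc-binding protein, had 38.8, 47.0 and 43.2 FPKM in HCD libraries and 48.0, 52.1 and 51.9 FPKM in CD libraries. Its log2 difference was -0.24 (SE 0.07; limma adjusted p = 0.0618, 0.0172 with the replicate block and 0.00509 without HCD replicate 2). Ndufs6, a complex I subunit gene on the opposite strand, overlaps Mrpl36 and starts within 500 bases of its start. Mrpl45, whose protein ties the ribosome to the inner membrane, averaged 20.2 ± 0.94 FPKM in HCD and 18.2 ± 1.17 FPKM in CD (limma adjusted p = 0.165). Mrpl2, whose bacterial counterpart borders the centre that forms peptide bonds, averaged 47.8 ± 3.23 FPKM in HCD and 43.0 ± 3.02 FPKM in CD, with overlap (limma adjusted p = 0.17). Mrpl9 averaged 42.9 ± 3.63 FPKM in HCD and 37.9 ± 3.08 FPKM in CD, also with overlap (limma adjusted p = 0.166). Mrps30 averaged 30.3 ± 3.08 FPKM in HCD and 31.3 ± 1.48 FPKM in CD, with overlap.

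Among the small subunit genes, 0 of 26 rose and 1 fell by limma (3.85%, against 13.9% of all genes), with a median log2 difference of -0.07. At an unadjusted p under 0.05, 1 was higher and 7 were lower, a share (8 of 26, both directions together) close to the 30.9% of all genes. Among all 10676 genes tested, 1349 were higher and 1955 lower at that threshold. Mrps12 encodes a protein of the decoding centre, where codon and anticodon pair. It had 29.8, 29.6 and 30.4 FPKM in HCD libraries and 34.7, 31.7 and 36.1 FPKM in CD libraries, without overlap (log2 difference -0.18, SE 0.06; limma adjusted p = 0.064, and 0.0483 with the replicate block). Mrps22, in which human variants cause mitochondrial disease, averaged 17.8 ± 0.33 FPKM in HCD and 20.1 ± 0.76 FPKM in CD (limma adjusted p = 0.0676). Mrps25, at a low level, averaged 5.90 ± 0.45 FPKM in HCD and 7.05 ± 0.18 FPKM in CD (limma adjusted p = 0.0867). Mrps10 averaged 6.81 ± 0.18 FPKM in HCD and 7.38 ± 0.10 FPKM in CD (limma adjusted p = 0.324). In both, the HCD libraries were below the CD libraries without overlap, and neither passed.

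The Mrps18 genes are 3 paralogs related to 1 bacterial protein, and their products sit at different places. Only Mrps18c is counted here as its counterpart, and Mrps18a and Mrps18b are counted as mitochondria-specific. Mrps18a, of the large subunit, had 32.3, 31.8 and 32.6 FPKM in HCD libraries and 34.9, 36.4 and 35.2 FPKM in CD libraries, with HCD below CD. Mrps18b, of the small subunit, had 17.1, 19.0 and 16.7 FPKM in HCD libraries and 14.5, 15.6 and 15.5 FPKM in CD libraries, with HCD above CD. Mrps18c, which holds the bacterial position in the small subunit, had 62.2, 80.5 and 59.1 FPKM in HCD libraries and 69.4, 74.7 and 59.4 FPKM in CD libraries, with overlap. None of the paralogs passed (limma adjusted p = 0.0811 for Mrps18a, 0.0783 for Mrps18b and 0.931 for Mrps18c). The intervals of Mrps18a (-0.24 to -0.03) and Mrps18b (0.05 to 0.35) did not overlap, but the difference between these genes was not tested.

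**Figure D3:**
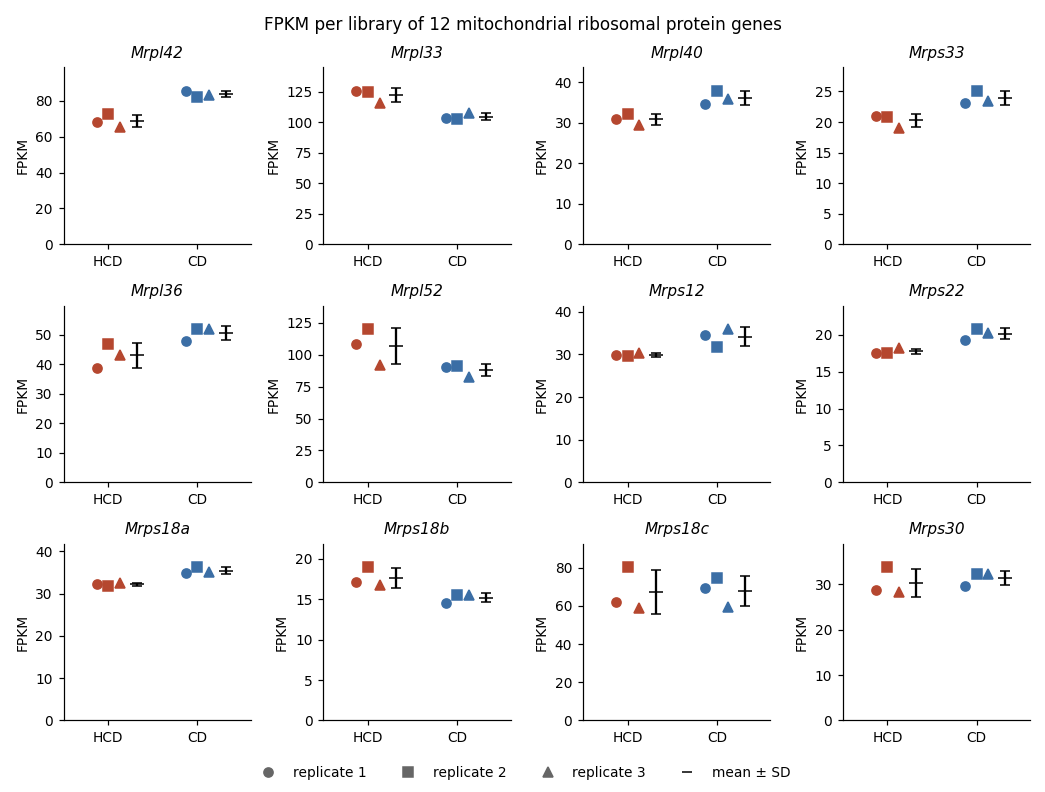
FPKM (vertical axes, from 0) of 12 of the 77 genes in each HCD library (left in each panel) and each CD library (right), with the replicate number as the symbol and mean ± SD in black (n = 3). The groups part for Mrpl42, Mrpl33, Mrpl40 and Mrps33, which were called. They part too for Mrpl36, Mrpl52, Mrps12, Mrps22, Mrps18a and Mrps18b, which did not pass in the fit reported first. The groups overlap for Mrps18c and Mrps30.

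By origin, 45 genes have a bacterial counterpart and 31 are specific to mitochondria, by a classification made from textbook knowledge of the mammalian structure. Of the genes with a bacterial counterpart 1 rose (Mrpl33) and 0 fell (2.22%), with a median log2 difference of -0.02. Of the mitochondria-specific genes 0 rose and 3 fell (Mrpl42, Mrpl40 and Mrps33; 9.68%), with a median of -0.09. Both shares are below the 13.9% of all genes. With the replicate block 1 was higher and 3 were lower in each kind, of 45 and of 31 genes. Among all genes 17.5% passed with the block (7.88% higher and 9.67% lower). Whether the kinds differ was not tested.

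The 3 HCD libraries did not behave alike. Relative to the CD mean, the median log2 difference of the 77 genes was -0.10 in HCD replicate 1, 0.05 in HCD replicate 2 and -0.10 in HCD replicate 3. In the CD libraries it was -0.01, 0.00 and 0.01. The median of all genes tested was -0.02, -0.05 and -0.02 in the same HCD libraries, so the 77 genes lay below it in replicates 1 and 3 and above it in replicate 2. Below the CD mean were 55 of the 77 genes in HCD replicate 1, 33 in replicate 2 and 54 in replicate 3. Of the 3 HCD libraries, replicate 2 had the highest value for 50 of the 77 genes (64.9%), against 36.3% of all genes tested. Summed over the 77 genes, the level was 2415, 2644 and 2365 FPKM in HCD libraries and 2499, 2542 and 2525 FPKM in CD libraries, so the groups overlapped. As a share of all FPKM it was 0.549%, 0.572% and 0.543% in HCD libraries and 0.584%, 0.587% and 0.591% in CD libraries, where the total also holds 26.1% to 29.0% cytosolic ribosomal protein transcripts in HCD and 25.3% to 25.9% in CD.

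**Figure D4:**
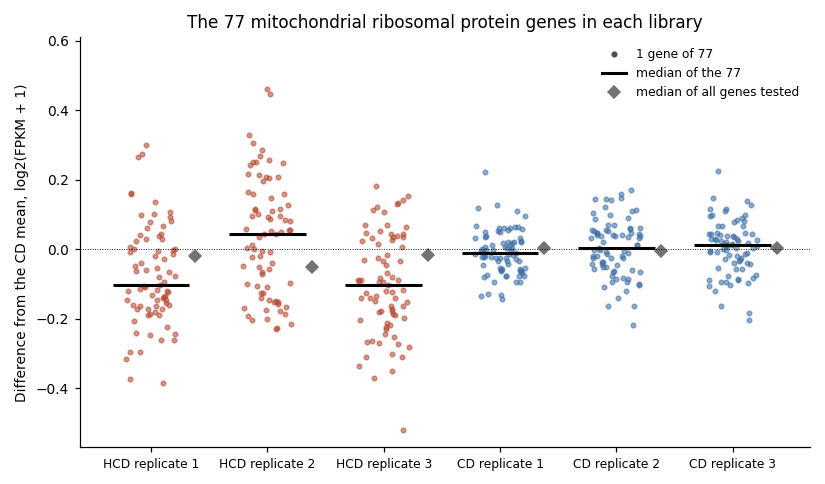
Difference of each of the 77 genes from its CD mean, in log2(FPKM + 1), in each HCD and CD library (points), with their median (bar) and the median of all genes tested (diamond). The median of the 77 genes lies at -0.10 in HCD replicates 1 and 3 and at 0.05 in HCD replicate 2.

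Without HCD replicate 2, the test called 18 of the 77 genes (23.4%), 2 higher and 16 lower, where it called 25.4% of all genes tested (11.3% higher and 14.1% lower). The 4 genes called from all 6 libraries were among the 18. The median log2 difference was then -0.09 for the 77 genes and -0.02 for all genes. Beside Mrpl42, the largest falls with a call were those of Mrps6 (-0.35, SE 0.10; adjusted p = 0.0276), Mrpl36 (-0.30, SE 0.06; 0.00509), Mrps2 (-0.29, SE 0.05; 0.00333), Mrpl19 (-0.28, SE 0.06; 0.00818), Mrpl50 (-0.28, SE 0.08; 0.0258) and Mrpl28 (-0.28, SE 0.04; 0.00214), all by limma and named after their values were seen. The second riser was Mrps28 (0.13, SE 0.04; adjusted p = 0.049). Of the 77 genes, 0 passed without CD replicate 1 (4.11% of all genes did). At an unadjusted p under 0.05, 3 of the 77 genes were higher and 10 lower in that fit. The share of all genes at that unadjusted threshold was not computed for it, so no excess can be read from these counts. Without CD replicate 2, CD replicate 3 or HCD replicate 1, 1 of the 77 genes passed in each case (5.21%, 4.81% and 6.66% of all genes). Without HCD replicate 3, 3 passed (10.4% of all genes). By comparison, 2 of the 77 genes passed with TMM factors (13% of all genes) and 2 with no filter on levels (7.36% of all genes).

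Transcript length moved with the difference between diets and with the difference that sets HCD replicate 2 apart. Over 10354 genes with a length, HCD replicate 2 minus the mean of HCD replicates 1 and 3 had a Spearman rho of -0.195 with length, as a description across genes. Over the 77 genes themselves rho was -0.062. For HCD minus CD, rho with length was -0.196 over all genes and -0.115 over the 77. Without HCD replicate 2 it was -0.125 and -0.099. For CD replicate 2 minus the mean of CD replicates 1 and 3 it was -0.099 and -0.344. The 77 transcripts are short, with a median length of 1047 bases against 2118 for all genes tested, and 62 of the 77 are below the median of all genes. With the trend of each library against length removed, 10 of the 77 genes passed, 1 higher and 9 lower, where 14.3% of all genes did (6.34% higher and 7.95% lower). With the replicate block added, 10 passed as well (16.5% of all genes). With the trend removed and no block, the median of the 77 genes was -0.10, 0.00 and -0.12 in HCD replicates 1, 2 and 3. So replicate 2 differed from the others on that scale too. What part length had in each gene's value was not tested.

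Markers of other cells also moved with diet. Neutrophil markers summed to 38.4 to 46.6 FPKM in HCD libraries and 11.4 to 11.7 FPKM in CD libraries, with 5 of 5 tested genes higher. A list of 12 DNA replication genes summed to 1167 to 1191 FPKM in HCD libraries and 1320 to 1330 FPKM in CD libraries, with 6 lower and 0 higher. Macrophage markers summed to 11 to 12.8 FPKM in HCD libraries and 13.8 to 14.6 FPKM in CD libraries, with 1 of 5 tested genes higher and 3 lower. Markers of LT-HSCs themselves summed to 302 to 306 FPKM in HCD libraries and 323 to 325 FPKM in CD libraries, with 1 of 8 higher and 3 lower. T and NK cell markers, mostly Nkg7, summed to 128 to 149 FPKM in HCD libraries and 105 to 109 FPKM in CD libraries. Of the 2 tested, Nkg7 was higher and Cd4 lower (1.12 FPKM in HCD and 2.01 FPKM in CD), while Cd3e was at 0 in all libraries and Ncr1 under 0.1 FPKM in each. Endothelial and stromal markers summed to 40.6 to 44.6 FPKM in HCD libraries and 32 to 35.1 FPKM in CD libraries. The only 1 tested, Pecam1, was higher (41 FPKM in HCD and 32.5 FPKM in CD), and Cdh5 and Lepr were under 0.1 FPKM in each library. Erythroid markers summed to 8.37 to 9.06 FPKM in HCD libraries and 9.3 to 11.7 FPKM in CD libraries, with 1 of 3 tested lower. B cell markers overlapped, at 26.8 to 28.2 FPKM in HCD libraries and 23 to 29.1 FPKM in CD libraries. Their part in the differences of the 77 genes was not tested.

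The other genes of mitochondrial translation were listed by role. Their counts stand beside 13.9% of all genes tested that passed, or 17.5% with the replicate block. At an unadjusted p under 0.05 the share of all genes tested was 30.9%. Proteins of the mitochondrial ribosome under other symbols, such as Dap3 and Ptcd3, had 0 risers and 0 fallers among 6 by limma (unadjusted p under 0.05 in 1, lower), with a median log2 difference of -0.04. Factors that assemble this ribosome had 1 riser and 2 fallers among 25 tested of 26 listed, with a median of -0.08. Rbfa, which encodes a factor that matures the small subunit, had 58.9, 59.5 and 60.9 FPKM in HCD libraries and 50.1, 52.0 and 49.1 FPKM in CD libraries (limma adjusted p = 0.0102). Mrm1 and Rnmtl1 encode enzymes that methylate ribosomal RNA of the large subunit. Mrm1 fell to 11.3 ± 1.18 FPKM in HCD, against 14.6 ± 0.42 FPKM in CD (limma adjusted p = 0.024), and Rnmtl1 to 8.31 ± 0.12 FPKM in HCD, against 9.90 ± 0.27 FPKM in CD (0.0432, but 0.0568 with the replicate block).

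Mitochondrial translation factors had 0 risers and 1 faller of 15 (2 fallers with the replicate block), with a median of -0.10. The faller was Lrpprc, whose protein stabilises mitochondrial mRNA, at 19.5 ± 1.53 FPKM in HCD and 23.0 ± 0.69 FPKM in CD (limma adjusted p = 0.0499, just under the threshold). Genes of mitochondrial transcription and RNA processing had 0 risers and 1 faller of 19, with a median of -0.13. It was Tfam, which packs mitochondrial DNA and starts its transcription, at 17.4 ± 0.41 FPKM in HCD and 20.1 ± 0.43 FPKM in CD (limma adjusted p = 0.0391, but 0.0525 with the replicate block). None of 22 mitochondrial aminoacyl-tRNA synthetase genes passed by limma, with a median of -0.11. At an unadjusted p under 0.05, 2 were higher and 5 lower, where 30.9% of all genes tested were under it. With the replicate block, 1 passed as lower.

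Of the nuclear regulators of mitochondrial genes, 0 rose and 3 fell among 11 tested of 12 listed, with a median of -0.10. Myc, a driver of ribosome and mitochondrial biogenesis, had 111, 97.1 and 107 FPKM in HCD libraries and 145, 146 and 144 FPKM in CD libraries (log2 difference -0.46, SE 0.06; limma adjusted p = 0.00197). Pprc1, which encodes a coactivator related to PGC-1, averaged 11.3 ± 1.05 FPKM in HCD and 15.2 ± 1.21 FPKM in CD (limma adjusted p = 0.0186). Creb1 averaged 12.5 ± 0.49 FPKM in HCD and 14.9 ± 0.43 FPKM in CD (limma adjusted p = 0.0341). Nrf1, Gabpa and Yy1, which encode the factors whose motifs were searched above, did not pass (limma adjusted p = 0.391 for Nrf1, 0.692 for Gabpa and 0.427 for Yy1).

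Set beside these, all 76 cytosolic ribosomal protein genes had a log2 difference above 0 in the fit of all 6 libraries, with a median of 0.14. Among all genes tested 57.9% were below 0. Of the 76 genes 2 passed (2.63%; Rps29 and Rps12, both higher), against 13.9% of all genes. With the replicate block 14 passed, all higher, where 17.5% of all genes did (7.88% higher and 9.67% lower). Of 77 tested respiratory chain and ATP synthase genes 2 rose (Ndufb5 and Ndufb11) and 0 fell (2.6%), with a median of 0.03. With the replicate block 5 were higher and 0 lower. In all 3 lists HCD replicate 2 was the highest HCD library by its median, at 0.05 for the mitochondrial ribosomal protein genes, 0.29 for the cytosolic ones and 0.12 for the respiratory chain. In HCD replicates 1 and 3 the medians were -0.10 and -0.10 for the mitochondrial ribosomal protein genes, 0.09 and 0.06 for the cytosolic ones, and 0.00 and -0.03 for the respiratory chain. The cytosolic and respiratory lists are shorter in transcript still (median 704 and 651 bases). Differences between the lists were not tested.

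Outside the 77 genes, Myc passed in each of the 6 fits that leave out 1 library, and each gene named here as risen or fallen passed without HCD replicate 2. Rbfa was lost without CD replicate 1 (limma adjusted p = 0.0557) and without CD replicate 3 (0.0571). Mrm1, Rnmtl1, Lrpprc, Tfam, Pprc1, Creb1, Rps29, Rps12, Ndufb5 and Ndufb11 were each lost without any 1 of the CD libraries, with limma adjusted p-values of 0.0543 (Pprc1) to 0.168 (Lrpprc). All of these but Mrm1 were lost without HCD replicate 1 too (0.0573 for Pprc1 to 0.141 for Ndufb11). Without HCD replicate 3, Mrm1, Rnmtl1, Lrpprc, Tfam and Creb1 were lost (0.0589 for Creb1 to 0.115 for Lrpprc). Lrpprc, Tfam and Rnmtl1 were lost with TMM factors (0.0957 for Lrpprc, 0.077 for Tfam and 0.0677 for Rnmtl1) and after quantile normalization (0.078 for Lrpprc, 0.0627 for Tfam and 0.0876 for Rnmtl1). Quantile normalization also brought the log2 difference of Rps29 to 0.10 (0.24 as reported; adjusted p = 0.0845) and that of Rps12, still called, to 0.12 (0.24 as reported; 0.0174). With the length trend removed, Lrpprc (0.12) and Ndufb11 (0.0657) were lost, and with no filter Lrpprc (0.0829), Ndufb11 (0.0715) and Ndufb5 (0.0574).

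**Figure D5:**
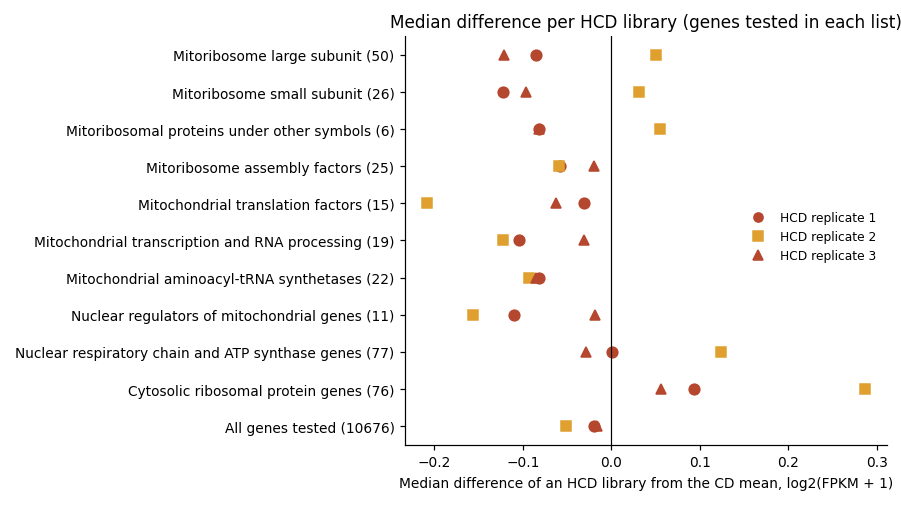
Median difference of each HCD library from the CD mean, in log2(FPKM + 1) (horizontal axis), for the genes tested in each list (number in brackets) and for all genes tested. HCD replicate 2 (squares) lies to the right of replicates 1 and 3 for both subunits of the mitochondrial ribosome, for cytosolic ribosomal protein genes and for the respiratory chain.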

How the data were processed

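Each library had 1 deposited table of a gene symbol and a value. The values were taken as FPKM made by the authors, from the values themselves, since the column headers carry no unit. Per the submitters' processing notes the tools were fastp, HISAT2 and StringTie, with the builds GRCm38 and mm10. Versions and annotation: not given in the sources used here. Of 21878 rows, 27 with a date as symbol (0.127% of the FPKM) were left out.

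Genes reaching 1 FPKM in 3 or more libraries were tested with limma 3.58.1 (R 4.3.3; mean-variance trend, robust, two-sided, no covariate) on log2(FPKM + 1), with Benjamini-Hochberg adjustment. Differences are on this scale, which understates changes of low genes. The fit was also run on simulated data with known changes, drawn independently for each gene. Those data held no outlying library and no trend with length, so they say nothing about the effect of either. Lengths are medians over protein-coding transcripts of GENCODE M21. Depth was estimated from low values of genes with 1 transcript.

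Deviations from the group means correlated at 0.103, 0.292 and 0.166 for same-numbered libraries, all above the bound of 0.1. For differently numbered ones the values were -0.250 to 0.098. The lowest same-numbered value is thus close to the highest of the others, and these values do not settle whether the libraries pair. A blocked fit, planned as an alternative, treated equal numbers as pairs. No label says that they pair, and the fit reported first has no block. No 2 libraries held identical values.

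Named are the genes past the threshold, the 6 with the smallest p in each direction, the 5 with the highest and lowest levels, the Mrps18 paralogs, Mrps30, and up to 4 called genes of each other list. The members and lists were chosen with earlier results of these data known.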

Additional observations from a re-analysis of the deposited data

How the results depend on the processing

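Of 77 genes, 4 passed from all 6 libraries (1 higher, 3 lower). The number was 2 with TMM factors (1 higher, 1 lower) and 2 with no filter (1 higher, 1 lower). It was 10 with the length trend removed (1 higher, 9 lower), 8 with the replicate block (2 higher, 6 lower) and 10 with the replicate block and the length trend removed (2 higher, 8 lower). Leaving out 1 library gave 0 to 18 (0 to 2 higher, 0 to 16 lower), the 0 without CD replicate 1 and the 18 without HCD replicate 2. The cause of these changes was not tested, and a fit that leaves out 1 library also rests on fewer libraries. The genes lost with no filter were Mrpl40 (limma adjusted p = 0.053) and Mrps33 (0.0641), and after quantile normalization Mrps33 (0.0577). Over all genes, 1488 passed, and 439 to 2707 when 1 library was left out. With TMM factors the split over all genes was 790 higher and 601 lower, against 670 and 818. The median log2 difference of the 77 genes was -0.02 to -0.06 under the other settings and -0.09 to -0.02 with 1 library left out. Below 0 were 40 of the 77 genes with TMM factors, against 50, while the median of all genes moved from -0.033 to -0.005.

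Among the named genes, signs turned for Mrpl13, Mrpl35 and Mrps18c, which lay near 0 and did not pass. Mrpl13 was at 0.029 with TMM factors, 0.004 after quantile normalization and -0.086 to 0.049 with 1 library left out. Mrpl35 was at 0.018 with TMM factors, 0.023 after quantile normalization, 0.018 with the length trend removed (also with the replicate block) and -0.017 to 0.002 with 1 library left out. Mrps18c was at 0.013 with TMM factors and -0.153 to 0.067 with 1 library left out. Beyond the changes given beside the results, the replicate block ended no call of a named gene. The TMM factors were computed without weights. At this depth and with 3 libraries a group, a change cannot be told from none where the gene's 95% interval crosses 0. An interval that excluded 0 did not by itself make a call after adjustment, as for Mrps18a and Mrps18b in the fit of all 6 libraries.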
